A study of Mus musculus with 6 samples.

Results

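The genes of the major histocompatibility complex (MHC) and of the machinery that loads its molecules with peptides were compared between DOX and PBS mouse livers. They were taken by name from the deposited count table: every symbol that starts with H2-, the prefix of the mouse MHC, and 13 named genes of the pathway, which gave 38 of the 22183 gene symbols. Of these, 16 encode class I heavy chains or relatives of them, 9 encode class II chains, 11 belong to the class I pathway and 2 (Ciita and Cd74) to the class II pathway. The filter on low counts left 35 of the 38 members, and H2-M5, H2-Eb2 and H2-Ob were too low to test. In the RefSeq annotation of GRCm38.p6 the H2 genes lie on chromosome 17, as do Tap1, Tap2, Tapbp, Psmb8 and Psmb9, while B2m lies on chromosome 2, Nlrc5 and Psmb10 on 8, Erap1 on 13, Psme1 and Psme2 on 14, Ciita on 16 and Cd74 on 18.

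The libraries were 3 from livers labelled DOX and 3 from livers labelled PBS, the usual abbreviation of phosphate-buffered saline. Their genotype was labelled BucheKI/KI-Hep throughout, and each had been given DDC, so the PBS livers carried the same alleles and the same injury model. In the design text the gene for butyrylcholinesterase (Bche in the table) was overexpressed in hepatocytes. The labels expand neither DOX nor DDC nor the title prefix S2W, and state no age, strain, sex, dose or time; in mouse work DDC usually stands for a chemical that causes porphyrin build-up and bile duct injury, and DOX for doxycycline, an inducer of engineered genes. Bche stood at 1938, 1867 and 1763 CPM (counts scaled to each library's TMM-adjusted total) in the DOX livers, against 177, 177 and 206 CPM in the PBS livers, a 9.94-fold higher level. Any effect of the raised Bche and any effect of DOX itself cannot be told apart in this design. Whether each library stands for its own animal is not in the labels, and the p-values thus speak only of the spread among these 6 libraries, which could be technical.

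Total counts per library were 32476725 to 40298256 in DOX and 40592030 to 41921404 in PBS. The TMM factors, which adjust for composition, were 0.933 to 0.970 in DOX and 1.02 to 1.08 in PBS. The liver label fitted the data: albumin (Alb) stood at 70899 to 92734 CPM in DOX and 70083 to 72445 CPM in PBS. Of the 14681 genes tested, 2062 were lower and 1975 higher in DOX (edgeR's quasi-likelihood test, Benjamini-Hochberg adjusted p under 0.05, called in what follows), and the median log2 fold change of all tested genes was -0.01.

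Class I molecules sit on nearly all nucleated cells and show peptides from the cell's own proteins to CD8 T cells and natural killer cells. A heavy chain pairs with beta-2 microglobulin (B2m), the proteasome and its interferon-inducible subunits cut the peptides, the TAP transporter carries them into the endoplasmic reticulum, and tapasin helps load them. Class II molecules are pairs of an alpha and a beta chain made mainly by dendritic cells, B cells and macrophages, and show peptides from engulfed material to CD4 T cells. The invariant chain (Cd74) occupies their groove until H2-DM exchanges its remnant for a peptide, and the coactivator CIITA, the product of Ciita, drives their transcription, while NLRC5 plays the matching part for class I.

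Promoters of both classes can carry the docking sites that CIITA and NLRC5 share, the X box and the Y box. Promoter stretches of members of both classes are shown, and any part of these sites in the values that follow was not tested. Each sequence covers the 140 bases before the first start listed for the gene in RefSeq (GRCm38.p6), on the strand of the gene, 5′ to 3′, in lower case. Capitals mark a match to TGANG followed, after 15 to 22 bases, by ATTGG, the inverted CCAAT letters of a Y box.
H2-Aa (chr17:34287824-34287963, minus strand): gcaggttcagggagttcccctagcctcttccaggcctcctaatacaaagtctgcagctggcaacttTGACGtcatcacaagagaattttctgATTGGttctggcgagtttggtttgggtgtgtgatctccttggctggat
H2-Eb1 (chr17:34305727-34305866, plus strand): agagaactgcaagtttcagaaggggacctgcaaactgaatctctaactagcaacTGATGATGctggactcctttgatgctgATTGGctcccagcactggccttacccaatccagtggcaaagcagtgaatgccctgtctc
H2-DMb1 (chr17:34153051-34153190, plus strand): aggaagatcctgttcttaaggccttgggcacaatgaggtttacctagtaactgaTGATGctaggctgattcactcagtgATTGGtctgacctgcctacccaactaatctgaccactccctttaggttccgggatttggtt
H2-K1 (chr17:34000348-34000487, minus strand): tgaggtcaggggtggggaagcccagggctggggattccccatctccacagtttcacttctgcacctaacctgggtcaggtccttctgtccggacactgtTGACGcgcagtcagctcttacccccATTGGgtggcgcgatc
H2-D1 (chr17:35262954-35263093, plus strand): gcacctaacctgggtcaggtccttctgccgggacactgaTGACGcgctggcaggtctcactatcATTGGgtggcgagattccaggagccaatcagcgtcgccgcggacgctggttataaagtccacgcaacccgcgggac
H2-Q10 (chr17:35469949-35470088, plus strand): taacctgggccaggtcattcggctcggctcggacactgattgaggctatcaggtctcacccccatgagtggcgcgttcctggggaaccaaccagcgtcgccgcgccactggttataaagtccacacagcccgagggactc
B2m (chr2:122147547-122147686, plus strand): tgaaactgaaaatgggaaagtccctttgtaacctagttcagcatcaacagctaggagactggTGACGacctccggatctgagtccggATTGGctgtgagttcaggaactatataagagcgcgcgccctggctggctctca

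H2-Aa, H2-Eb1 and H2-DMb1 are class II genes, H2-K1 and H2-D1 are the classical class I heavy chains, and H2-Q10 is a liver-rich class I gene without a match in this window. In H2-Eb1 the capitals TGATGATG hold a pair of overlapping copies of the first part. The start used for H2-K1 lies inside its RefSeq gene span, which runs to position 34000619. Over windows from 250 bases before to 50 bases after the start, searched on both strands, the combined letters were present in 6 of 8 class II members, 5 of 13 class I members and 1 of 9 class I pathway members with a RefSeq promoter, against 723 of all 32851 promoters (2.20%). The letters AANNGAAA, part of an interferon-stimulated response element, were present in 12 of 13 class I, 3 of 8 class II and 3 of 9 class I pathway members, against 23.9% of all promoters. The letters were chosen after the promoters had been read, and a match describes the sequence, not a bound site.

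Across the tested members, 15 of 35 were called lower in DOX, where 14.0% of all tested genes were called lower, and 0 were called higher, where 13.5% of all tested genes were. By class, the lower calls held 5 of 7 tested class II chains and 5 of 15 class I heavy chains. They also held 3 of 11 class I pathway genes, Ciita and Cd74. All 3 DOX libraries lay below all 3 PBS libraries for 20 of the 35, against 22.3% of all tested genes. The classes differed in size: the median log2 fold change was -1.13 over the 7 tested class II chains and -0.28 over the 15 tested class I heavy chains. For the class I pathway it was -0.23 over 11 genes, and Ciita and Cd74 had -2.35 and -1.10.

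**Figure D1:**
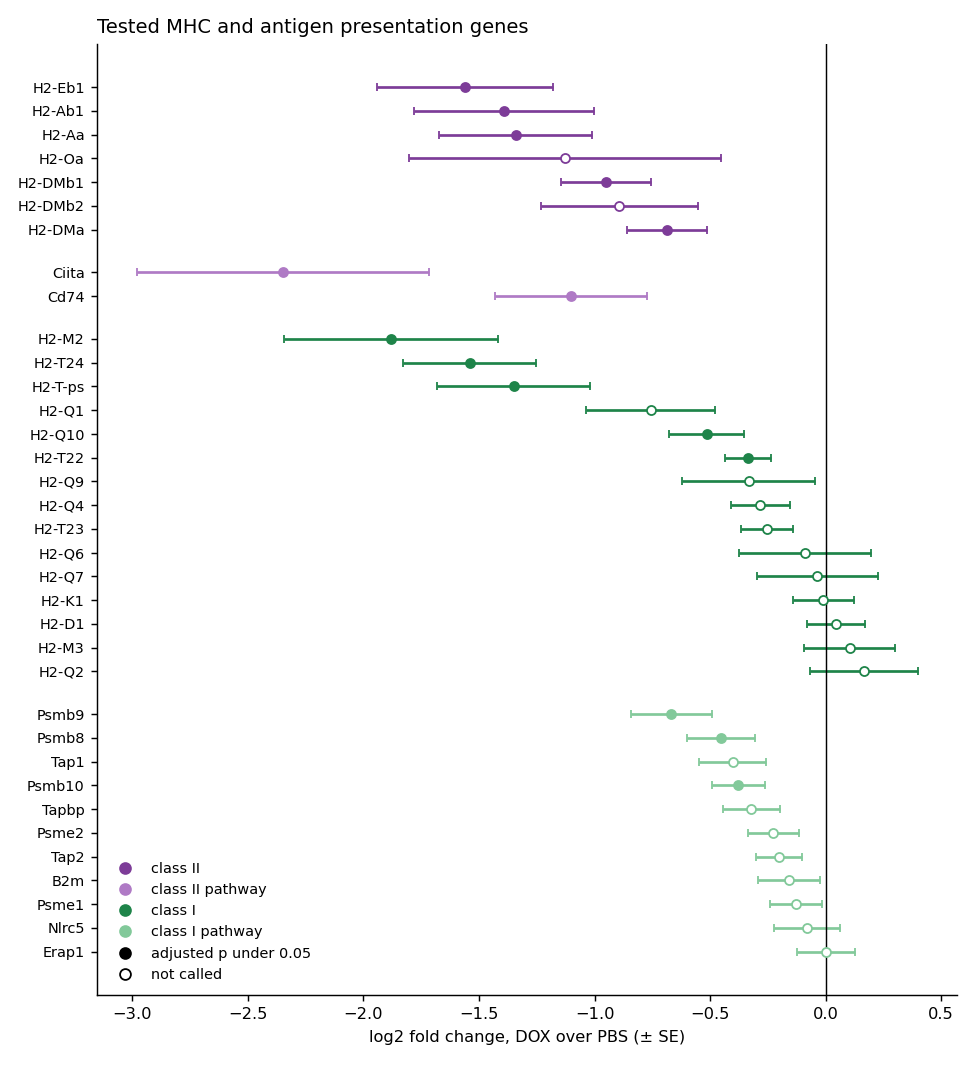
Log2 fold change, DOX over PBS, of each tested MHC and antigen presentation gene, grouped by class, with bars of 1 standard error and filled points for genes called at an adjusted p under 0.05. All 7 class II chains lie between -1.56 and -0.69, while H2-K1 and H2-D1 lie at -0.01 and 0.04.

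The classical class II chains were lower in DOX. H2-Aa, the alpha chain of the I-A molecule, stood at 67.6, 54.4 and 27.7 CPM in DOX 1 to 3, against 113, 151 and 116 CPM in PBS 1 to 3. Its partner H2-Ab1, the I-A beta chain, stood at 60.1, 51.0 and 21.1 CPM in DOX, against 106, 131 and 110 CPM in PBS. H2-Eb1, the beta chain of the I-E molecule, stood at 43.2, 39.2 and 15.8 CPM in DOX, against 87.8, 109 and 93.5 CPM in PBS. The groups did not overlap for any of the 3 genes, where 22.3% of all tested genes had all 3 DOX libraries below all 3 PBS libraries. DOX 3 was the lowest library for each of the 3. The log2 fold changes were -1.34 ± 0.33 for H2-Aa, -1.39 ± 0.39 for H2-Ab1 and -1.56 ± 0.38 for H2-Eb1 (± SE, n = 3 libraries a group), with adjusted p of 0.0300, 0.0494 and 0.0325 in edgeR's quasi-likelihood test.

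These calls needed nearly all of the libraries. Without DOX 2, PBS 1, PBS 2 or PBS 3, the adjusted p of H2-Aa (edgeR) was 0.0993, 0.0589, 0.0843 and 0.0752, in that order. For H2-Ab1 it was 0.0528 without DOX 1, 0.121 without DOX 2, 0.0976 without PBS 1, 0.124 without PBS 2 and 0.121 without PBS 3. For H2-Eb1 the matching values were 0.0501, 0.0842, 0.0709, 0.0907 and 0.0923. Without DOX 3, the library that stood apart, the log2 fold changes were -1.06 for H2-Aa, -1.06 for H2-Ab1 and -1.23 for H2-Eb1, and the adjusted p were 0.00320, 0.00152 and 0.000608.

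The peptide editors of class II were lower by less but with a smaller spread. H2-DMb1, a beta chain of the DM exchange factor, had 11.01, 8.05 and 6.19 CPM in DOX, against 16.2, 18.4 and 14.3 CPM in PBS. Its log2 fold change of -0.95 ± 0.19 (SE) gave an adjusted p of 0.00513 (edgeR), and it stayed called without any single library. H2-DMa, the alpha chain, had 10.5, 9.64 and 6.60 CPM in DOX, against 13.3, 15.7 and 14.2 CPM in PBS, with a log2 fold change of -0.69 ± 0.17 and an adjusted p of 0.0132, or 0.0535 without PBS 2. In the RefSeq annotation H2-DMa overlaps the gene Brd2 by 3122 bases, and Brd2 was itself lower in DOX (94.0 ± 10.5 CPM, against 124 ± 21.8 CPM in PBS, SD, n = 3 each). How reads in the shared stretch were counted is not given in the sources used here. H2-DMb2, the other DM beta chain, had 0.667 to 1.24 CPM in DOX and 1.46 to 1.80 CPM in PBS and was not called (-0.89 ± 0.34, adjusted p = 0.0708), or was called without DOX 2 (adjusted p = 0.0229). Of the 100-base windows of H2-DMb1 and H2-DMb2, 11.3% and 10.3% also occur in the other gene, so their counts may be partly shared.

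The DO chains, which restrain DM in B cells, were near the limit of detection. H2-Oa had 7, 17 and 1 counts in DOX, against 17, 34 and 18 counts in PBS, and the groups overlapped (log2 fold change -1.13 ± 0.67, adjusted p = 0.235, or 0.0378 without DOX 2). H2-Ob was not tested after the filter, with 3, 3 and 2 counts in DOX, against 39, 44 and 9 counts in PBS. H2-Eb2, a little-expressed relative of H2-Eb1, had 0, 3 and 0 counts in DOX, against 4, 3 and 6 counts in PBS.

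Both class II pathway genes were lower in DOX. Ciita had 0.873, 2.48 and 0.254 CPM in DOX, against 7.60, 4.59 and 6.28 CPM in PBS, with no overlap and with DOX 3 again the lowest. At -2.35 ± 0.63 (SE, adjusted p = 0.0342, edgeR), its log2 fold change was the lowest of the tested members. Without DOX 2 the log2 fold change was -3.40, and the call was lost without DOX 1 (adjusted p = 0.130), PBS 1 (0.0926), PBS 2 (0.0718) or PBS 3 (0.0989). Cd74, the invariant chain, had 223, 182 and 83.5 CPM in DOX, against 344, 371 and 333 CPM in PBS. The log2 fold change of Cd74 was -1.10 ± 0.33 (adjusted p = 0.0483), and the call was lost without DOX 2 (0.144), PBS 1 (0.103), PBS 2 (0.135) or PBS 3 (0.121). Without DOX 3 the adjusted p was 0.0141 for Ciita and 0.00578 for Cd74. The order of the libraries within DOX differed between the coactivator and the chains: DOX 2 was the highest for Ciita, while DOX 1 was the highest for H2-Aa, H2-Ab1, H2-Eb1 and Cd74.

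**Figure D2:**
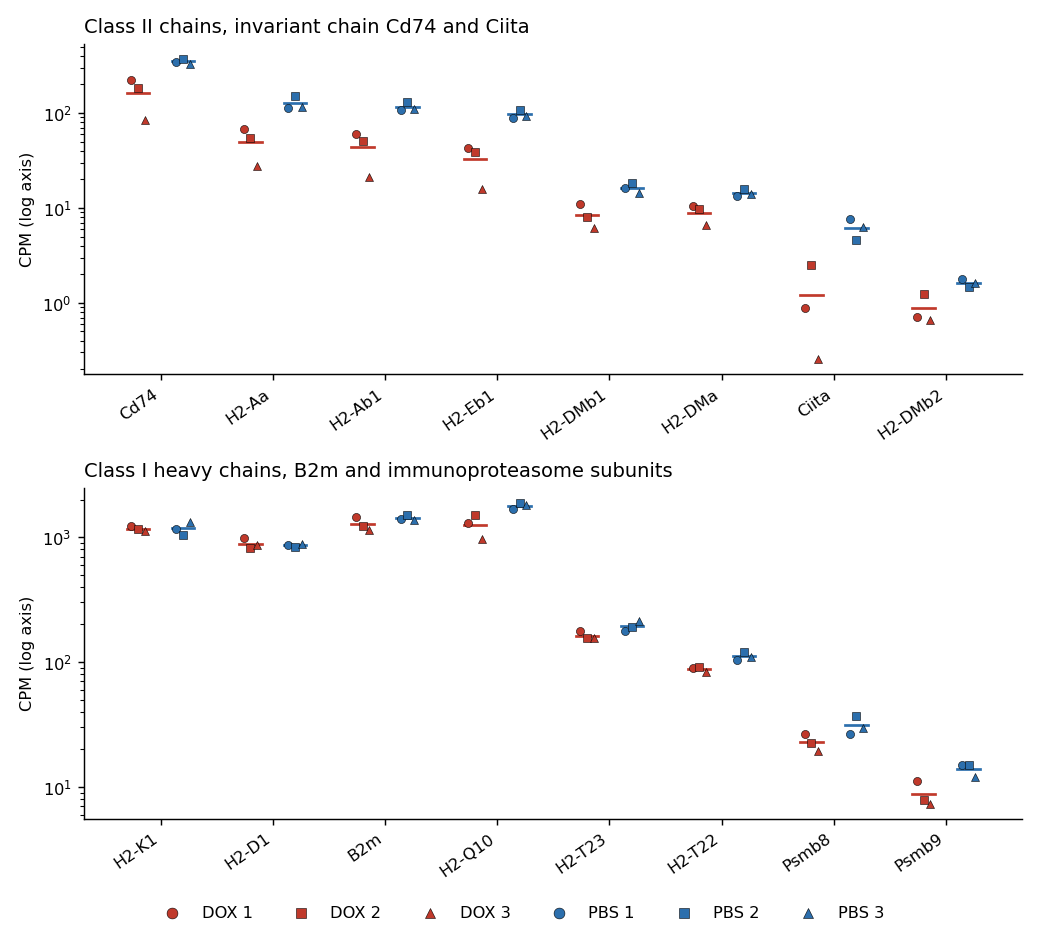
CPM on a log axis in each DOX (left) and PBS (right) library for members of both classes, 1 point a library. DOX 3 is the lowest point for H2-Aa, H2-Ab1, H2-Eb1, Cd74 and Ciita, while the DOX and PBS points of H2-K1, H2-D1 and B2m overlap.

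The classical class I heavy chains showed no detectable difference. H2-K1 stood at 1219, 1168 and 1124 CPM in DOX, against 1168, 1048 and 1324 CPM in PBS, and H2-D1 at 977, 822 and 865 CPM in DOX, against 869, 827 and 888 CPM in PBS. The groups overlapped for both genes. The log2 fold changes were -0.01 ± 0.13 for H2-K1 and 0.04 ± 0.12 for H2-D1 (SE), with adjusted p of 0.959 and 0.822 (edgeR); scaled by library size alone, H2-D1 came out at -0.11. B2m, the light chain of every class I molecule, had 1461, 1229 and 1145 CPM in DOX and 1403, 1505 and 1376 CPM in PBS, again with overlap (-0.16 ± 0.14, adjusted p = 0.410). Per kilobase of gene length, B2m was the most abundant member, with 1490 ± 191 CPM per kilobase in DOX and 1664 ± 79.6 in PBS (SD, n = 3 each).

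H2-Q10 was the most abundant class I heavy chain, and it was called lower in DOX. It encodes a class I molecule that hepatocytes secrete, and its level per length was the highest of the heavy chains: 849 ± 180 CPM per kilobase in DOX and 1213 ± 62.6 in PBS (SD, n = 3 each). In CPM it stood at 1289, 1495 and 968 in DOX, against 1689, 1872 and 1802 in PBS, without overlap. On the log2 scale the fold change of H2-Q10 came to -0.52 ± 0.16 (SE, adjusted p = 0.0348, edgeR), and the call was lost without DOX 1 (0.0732), DOX 3 (0.103), PBS 1 (0.0735), PBS 2 (0.102) or PBS 3 (0.0860). Among 100-base windows of H2-Q10, 8.01% occur in another gene, so a few of its reads could have been counted elsewhere.

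Of the 15 tested class I heavy chains and relatives, 5 were called lower, where 14.0% of all tested genes were. The 4 besides H2-Q10 were H2-T24, H2-M2, H2-T-ps and H2-T22. H2-T24, a gene of the T region, had 1.30, 1.41 and 1.08 CPM in DOX, against 3.89, 4.68 and 2.48 CPM in PBS, with a log2 fold change of -1.54 ± 0.29 (SE, adjusted p = 0.00320, edgeR) that stayed called without any single library. H2-M2, from the M region, had 1.03, 0.206 and 0.730 CPM in DOX, against 1.89, 3.35 and 2.08 CPM in PBS (-1.88 ± 0.46, adjusted p = 0.0126, or 0.0548 without PBS 2). H2-T-ps had 1.69, 1.27 and 1.02 CPM in DOX, against 2.56, 5.04 and 2.60 CPM in PBS (-1.35 ± 0.33, adjusted p = 0.0117, or 0.0619 without PBS 2). These 3 were scarce transcripts, and none of their DOX values reached the lowest PBS value. Among all tested genes, 22.3% had all 3 DOX libraries below all 3 PBS libraries.

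H2-T22, whose product binds a subset of gamma-delta T cell receptors, was lower by a smaller step at a higher level. It had 89.9, 91.2 and 83.8 CPM in DOX, against 104, 120 and 110 CPM in PBS (-0.34 ± 0.10, adjusted p = 0.0285, edgeR). The call was lost without DOX 1 (0.0552), DOX 3 (0.0921), PBS 2 (0.124) or PBS 3 (0.0663). H2-T23, which encodes the Qa-1 molecule that binds inhibitory receptors of natural killer cells, had 155 to 177 CPM in DOX and 179 to 212 CPM in PBS, without overlap but not called (-0.25 ± 0.11, adjusted p = 0.116). H2-T22, H2-T23 and H2-T24 each overlap the scarce transcript A930015D03Rik (6, 18 and 14 counts in DOX, 8, 4 and 5 counts in PBS).

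The genes of the Q region other than H2-Q10 were not called by edgeR. H2-Q1 had 52.9, 87.1 and 47.2 CPM in DOX, against 105, 78.7 and 132 CPM in PBS, and its groups overlapped through DOX 2 and PBS 2. Its log2 fold change was -0.76 ± 0.28 (SE, adjusted p = 0.0893, edgeR), and the adjusted p was 0.00459 without DOX 2, 0.0456 without PBS 2 and 0.0337 by library size alone. DESeq2 called H2-Q1 lower, with an adjusted p of 0.00577. H2-Q4, H2-Q6, H2-Q7 and H2-Q9 had log2 fold changes of -0.28, -0.09, -0.04 and -0.33, and H2-Q2 had 0.17, with adjusted p of 0.121 to 0.934. Of the windows of H2-Q7, 12.0% occur in another gene, and of H2-Q6 10.8%, so reads may be split among these close relatives. H2-M3, which presents formylated bacterial peptides, had a log2 fold change of 0.10 ± 0.20, and H2-M5 had at most 2 counts in a library.

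In the class I pathway, 3 of 11 genes were called lower, where 14.0% of all tested genes were. These were the 3 inducible catalytic subunits that turn the proteasome into the immunoproteasome, and the 8 other genes were not called. Psmb9 had 11.1, 7.90 and 7.36 CPM in DOX, against 14.99, 15.04 and 11.99 CPM in PBS (-0.67 ± 0.17, SE, adjusted p = 0.0159, edgeR). Psmb8 had 26.5, 22.6 and 19.3 CPM in DOX, against 26.7, 37.1 and 29.9 CPM in PBS (-0.45 ± 0.15, adjusted p = 0.0409). Psmb10 had 31.1, 29.6 and 26.7 CPM in DOX, against 33.6, 39.0 and 41.1 CPM in PBS (-0.38 ± 0.11, adjusted p = 0.0289). No groups overlapped, where all 3 DOX libraries lay below all 3 PBS libraries for 22.3% of all tested genes. For Psmb8, DOX 1 and PBS 1 were almost level.

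Each inducible subunit replaces a constitutive one, and the 3 replaced subunits Psmb5, Psmb6 and Psmb7 were not called. Per length, Psmb9 made up 6.37 ± 0.76% of Psmb9 plus Psmb6 in DOX and 10.5 ± 0.63% in PBS (SD, n = 3 each). The share of Psmb8 against Psmb5 was 10.6 ± 0.61% in DOX and 13.3 ± 1.21% in PBS, and that of Psmb10 against Psmb7 was 15.8 ± 0.67% in DOX and 19.6 ± 2.06% in PBS. For all 3 pairs the highest DOX share was below the lowest PBS share. The calls of the inducible subunits were fragile: the adjusted p of Psmb9 was 0.0629 without DOX 3, 0.0546 without PBS 1 and 0.0590 without PBS 2. For Psmb8 it was 0.0621 without DOX 2, 0.148 without DOX 3, 0.180 without PBS 2 and 0.0794 without PBS 3, and for Psmb10 it was 0.107 without DOX 3, 0.0916 without PBS 2 and 0.115 without PBS 3.

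The transporter and loading genes did not pass the test in either direction. Tap1, one chain of the peptide transporter, had 18.7, 13.1 and 13.9 CPM in DOX, against 21.6, 19.5 and 19.4 CPM in PBS (-0.40 ± 0.15, SE, adjusted p = 0.0581, edgeR, or 0.0147 without DOX 1). Tap1 was also called with no filter (0.0260) and by library size alone (0.0148). Its start lies 226 bases from that of Psmb9 on the opposite strand. Tap2, the other chain, had 23.9 to 26.4 CPM in DOX and 28.1 to 29.1 CPM in PBS (-0.20 ± 0.10, adjusted p = 0.154), and Tapbp, tapasin, had 118 to 148 CPM in DOX and 149 to 181 CPM in PBS (-0.32 ± 0.12, adjusted p = 0.0713, or 0.0410 without DOX 1). The proteasome activator subunits Psme1 and Psme2 had -0.13 ± 0.11 and -0.23 ± 0.11, with overlap. Of the 100-base windows of Psme2, 18.4% occur in another gene. Erap1, which trims peptides to length, had 71.9 to 100.4 CPM in DOX and 79.6 to 91.4 CPM in PBS, with a log2 fold change of 0.00 ± 0.13. Nlrc5, the class I coactivator, had 12.7, 15.4 and 14.3 CPM in DOX, against 17.0, 15.4 and 12.5 CPM in PBS (-0.08 ± 0.14, adjusted p = 0.714).

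Summed per kilobase of gene length, the class II chains reached 147, 123 and 57.9 CPM per kilobase in DOX 1 to 3, against 258, 327 and 265 in PBS 1 to 3. The class I heavy chains summed to 2225, 2239 and 1873 CPM per kilobase in DOX, against 2442, 2497 and 2626 in PBS. Neither pair of groups overlapped, but the means were 109 ± 46.0 in DOX and 284 ± 37.7 in PBS for class II, and 2112 ± 208 in DOX and 2522 ± 94.6 in PBS for class I (SD, n = 3 each). Class I outweighed class II by 15.2, 18.2 and 32.4 times in the DOX livers, against 9.45, 7.64 and 9.90 times in the PBS livers. On the log2 scale this ratio was 4.37 ± 0.57 in DOX and 3.16 ± 0.20 in PBS, a difference of 1.21, or 0.89 without DOX 3. The smallest p that an exact two-sided permutation test can give with 3 libraries a group is 0.10, above the threshold, and the difference of these sums is given as a description.

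**Figure D3:**
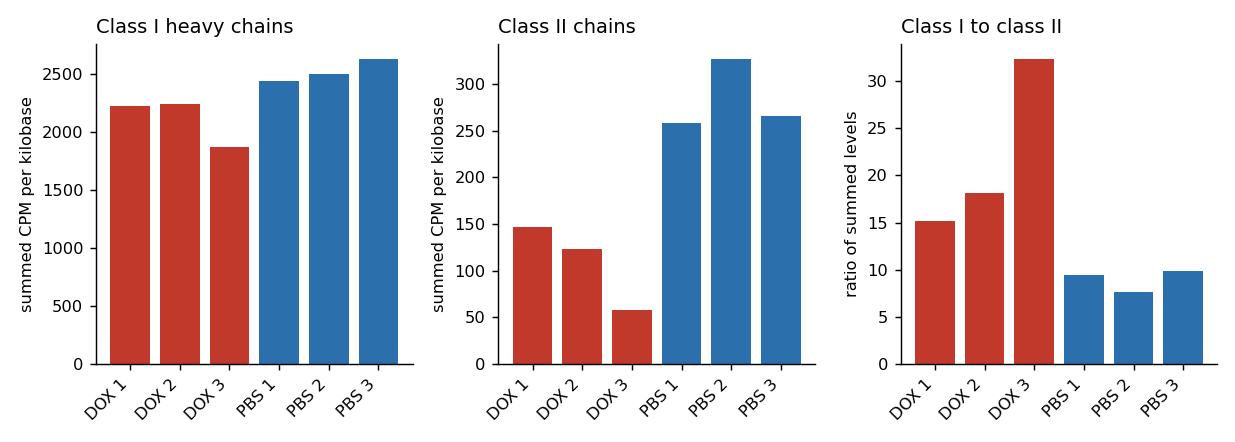
Summed level in CPM per kilobase of the class I heavy chains and of the class II chains in each library, and the ratio of class I to class II, with 1 bar a library, DOX left of PBS. The ratio lies between 15.2 and 32.4 in the DOX livers and between 7.64 and 9.90 in the PBS livers.

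Within class I the make-up differed as well. H2-Q10 supplied 39.3, 45.3 and 35.1% of the class I sum in DOX, against 47.0, 50.9 and 46.6% in PBS, while H2-K1 and H2-D1 together supplied 50.5, 45.1 and 54.2% in DOX, against 42.5, 38.4 and 42.6% in PBS. The summed level of H2-K1 and H2-D1 was 1049 ± 63.9 CPM per kilobase in DOX and 1038 ± 80.7 in PBS (SD, n = 3 each).

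Each gene was also set against classical class I, by scaling every library to its summed count of H2-K1 and H2-D1 in a second edgeR fit over all genes. This fit was chosen after the levels of the pair had been seen to differ little, so its fold changes lie close to those already given, and it compares single genes with the pair, not class II as a whole with class I. In it 12.3% of all tested genes were called lower and 10.1% higher, and 0 members were called higher. H2-DMb1 and H2-DMa remained lower relative to H2-K1 plus H2-D1 (-0.99 ± 0.20, adjusted p = 0.000734, and -0.72 ± 0.19, adjusted p = 0.00780). H2-Aa, H2-Ab1 and H2-Eb1 had -1.38 ± 0.36, -1.43 ± 0.42 and -1.60 ± 0.41 with adjusted p of 0.0540, 0.0837 and 0.0592, and so missed the threshold. Cd74 and Ciita missed it too, at -1.14 ± 0.36 (adjusted p = 0.0801) and -2.35 ± 0.74 (adjusted p = 0.0871). Within class I, H2-Q10 (-0.53 ± 0.16, adjusted p = 0.0193), H2-T24, H2-M2 and H2-T-ps were called lower than the classical pair, as were Psmb8, Psmb9 and Psmb10, with adjusted p of 0.000841 to 0.0480 for these 6. H2-T22 was not called in this fit (-0.36 ± 0.14, adjusted p = 0.0578).

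Other genes of the pathways, counted from lists chosen with earlier results of these data known, stand beside the shares of all tested genes, of which 14.0% were called lower and 13.5% higher. Of 12 peptide loading and folding genes, 1 was lower and 2 higher: Npepps, a cytosolic peptide trimmer, at -0.77, Calr, the chaperone calreticulin that holds class I heavy chains for loading, at 0.82, and Sec61a1, a subunit of the endoplasmic reticulum channel, at 0.49 on the log2 scale. These counts are near the shares of all tested genes, and the median of the list was 0.11. Calr had 934, 896 and 773 CPM in DOX, against 469, 464 and 537 CPM in PBS (adjusted p = 0.00140, edgeR). Without DOX 2, 4 genes of this list were called higher. Of 6 genes of the constitutive proteasome and its caps, 0 were called in either direction, and the median was -0.04.

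Of 14 class II trafficking genes and proteases, 1 was lower and 3 were higher, with a median of -0.02, where 14.0% of all tested genes were lower and 13.5% higher. Scaled by library size alone, 5 were lower and 1 was higher, so the balance of this list depends on the scaling. Ctss, the cathepsin that trims the invariant chain, had 490, 388 and 569 CPM in DOX, against 306, 321 and 293 CPM in PBS (0.65 ± 0.14, SE, adjusted p = 0.00717, edgeR), the opposite direction to the Cd74 it acts on. Ctsl, another cathepsin, was higher at 0.59 (adjusted p = 0.0142), Lgmn, a lysosomal protease, at 0.34 (0.0402), and Rfxank, a subunit of the RFX complex that binds the X box, was lower at -0.45 (0.0457). The Ctss call held without any 1 library, while that of Lgmn was lost without DOX 1 (0.0798), DOX 3 (0.118), PBS 1 (0.132), PBS 2 (0.0854) or PBS 3 (0.118). Without DOX 3, PBS 1 or PBS 3, 1 gene of the list was called higher, and 0 were called lower without any 1 of the 6 libraries. The other RFX subunits, Rfx5 and Rfxap, had -0.39 and 0.17 and were not called.

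Among 8 tested class I-like genes, 4 were lower and 1 was higher (median -0.31), against 14.0% and 13.5% of all tested genes. Raet1e, a ligand of the activating receptor NKG2D, had 0.688, 1.92 and 1.05 CPM in DOX, against 6.75, 6.37 and 5.57 CPM in PBS (-2.36 ± 0.31, SE, adjusted p = 0.000624, edgeR). Cd1d1, which presents lipids to natural killer T cells, had 124, 133 and 116 CPM in DOX, against 175, 184 and 180 CPM in PBS (-0.53 ± 0.10, adjusted p = 0.00394). Fcgrt, the neonatal Fc receptor, was lower at -0.41 (adjusted p = 0.0142, or 0.0576 without DOX 3 and 0.0591 without PBS 3), and Azgp1, a secreted lipid-binding relative, was higher at 0.57 (0.00745).

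In the interferon axis, 7 of 17 tested genes were lower and 1 was higher, with a median of -0.23, where 14.0% of all tested genes were lower and 13.5% higher. Irf9, a factor of the type I interferon response, had 13.9, 15.03 and 14.8 CPM in DOX, against 24.4, 25.8 and 26.7 CPM in PBS (-0.81 ± 0.11, SE, adjusted p = 0.000624, edgeR). Irf1, which binds class I promoters, was lower at -0.73 (0.00134) and Tyk2, a receptor-associated kinase, at -0.69 (0.00229). The gene higher in DOX was Ifngr1, a chain of the interferon-gamma receptor, at 0.31 (0.0470), a call lost without DOX 1 (0.114), DOX 3 (0.163), PBS 1 (0.139), PBS 2 (0.138) or PBS 3 (0.0817). Ifng itself had 1, 0 and 1 counts in DOX and 0 counts in each PBS library. Of 6 tested genes in the costimulation list, 3 were lower and 0 higher: Cd83 at -0.72 (0.00559), Icosl at -0.68 (0.0154) and Cd274 at -0.50 (0.0499). Cd274 encodes an inhibitory ligand. The costimulators Cd80, Cd86 and Cd40 were not called, with log2 fold changes of -0.03, 0.08 and -0.40. The Cd274 call was lost without any 1 library (adjusted p 0.0780 to 0.142).

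Markers of dendritic and B cells, main makers of class II, were lower too. In bulk samples, fewer cells of a type and less RNA per cell cannot be told apart. Of 12 tested dendritic cell markers, 10 were lower and 0 higher in DOX (median -1.38), against 14.0% and 13.5% of all tested genes, and the 13 listed markers summed to 102 to 129 CPM in DOX and 188 to 205 CPM in PBS, most of it Bst2, which other cells also express. Clec9a and Xcr1 mark the cross-presenting type: Clec9a had 1.19, 0.796 and 1.49 CPM in DOX, against 3.22, 3.72 and 2.46 CPM in PBS, and Xcr1 had 2, 3 and 0 counts in DOX, against 34, 13 and 28 counts in PBS. Cd209a and Clec10a, of the other conventional type, had 0.159 to 0.354 and 0.159 to 0.648 CPM in DOX, against 0.944 to 1.76 and 2.05 to 2.39 CPM in PBS. Zbtb46 (6.19 to 7.78 CPM in DOX, 6.14 to 7.39 CPM in PBS) and Batf3 were not called. Of the 12 dendritic cell markers, 7 were called lower without PBS 1 and 8 without DOX 1 or PBS 2. The count was 9 without DOX 3 or PBS 3 and 10 without DOX 2.

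Both tested B cell markers were lower: Cd79b at -1.20 (adjusted p = 0.0226, edgeR) and Cd22 at -0.78 (0.0111), but only 1 of them was called without DOX 3, PBS 1, PBS 2 or PBS 3. The 8 B cell markers in the table summed to 3.75 to 4.30 CPM in DOX and 7.76 to 8.06 CPM in PBS, with Pax5 and Cr2 at 0 in all DOX libraries. Of 11 T and NK cell markers, 2 were lower and 0 higher (median -1.13), a share near the 14.0% of all tested genes called lower, and they summed to 2.38 to 4.95 CPM in DOX and 6.96 to 9.54 CPM in PBS. Without PBS 1, 0 of these 11 were called, and 1 was without DOX 1, DOX 3, PBS 2 or PBS 3. Ptprc, the marker of all leukocytes, had 24.8 to 26.7 CPM in DOX and 31.5 to 37.7 CPM in PBS (-0.45 ± 0.11, SE, adjusted p = 0.0101).

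Macrophage markers were called in both directions, where 14.0% of all tested genes were lower and 13.5% higher. Of 10 Kupffer cell markers, 1 was lower (Cd5l, -0.52) and 2 were higher (Vsig4, 0.72, and Marco, 0.61), near those shares, and the list summed to 1394 to 1573 CPM in DOX and 1333 to 1487 CPM in PBS. Without DOX 2, 4 were called lower and 4 higher, and without DOX 3 or PBS 2, 0 were called lower. The Cd5l call was lost without DOX 3 (adjusted p = 0.0610, edgeR), PBS 1 (0.0522) or PBS 2 (0.0682). Of 12 markers of monocytes and recruited macrophages, 1 was lower (Ccr2, -1.05) and 3 were higher (Chil3, 3.30, Itgam, 0.77, and Gpnmb, 1.27), with sums of 1996 to 2952 CPM in DOX and 2081 to 2327 CPM in PBS. Without DOX 3, 2 of these 12 were lower. The Gpnmb call was lost without DOX 1 (0.0752), PBS 1 (0.107), PBS 2 (0.116) or PBS 3 (0.106), by library size alone (0.0792) and with no filter (0.145), and its log2 fold change was 0.76 without DOX 3. Of 8 sinusoidal endothelial markers 0 were lower and 4 higher, or 2 without PBS 2, and of 8 hepatocyte markers 0 were lower and 3 higher, where 13.5% of all tested genes were higher. The part of these cell types in the lower class II and Ciita levels was not tested.

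**Figure D4:**
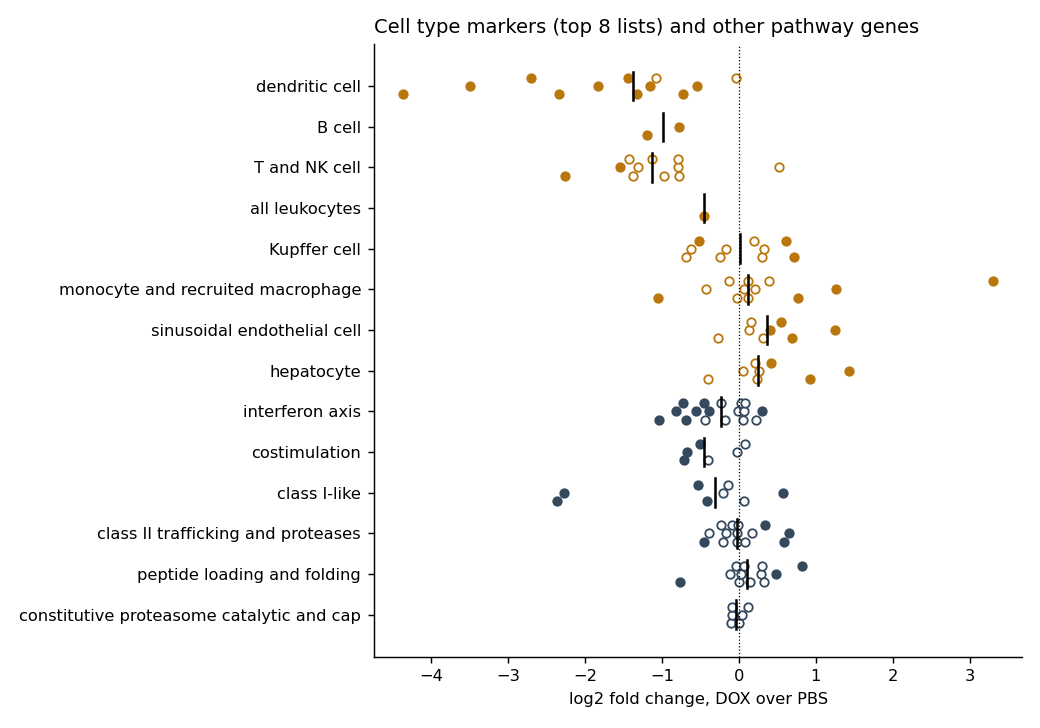
Log2 fold change, DOX over PBS, of each tested gene in the 8 cell type marker lists (orange) and the 6 other pathway lists (dark blue), 1 point a gene, filled where called at an adjusted p under 0.05, with the median of each list as a bar. The dendritic, B, and T and NK cell lists have medians of -1.38, -0.99 and -1.13, over 12, 2 and 11 tested genes. Of these, 10, 2 and 2 were called lower, where 14.0% of all tested genes were. The Kupffer list centres on 0.02 and the list of class II trafficking genes and proteases on -0.02.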

How the data were processed

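Liver RNA of 6 mouse samples was made into libraries with a SMARTER mRNA-seq kit after RNeasy extraction, per the labels' protocols. The authors deposited raw counts per gene symbol and FPKM values. The deposited FPKM equal the counts over library total and a gene length that was constant across libraries (relative difference at most 1.8e-06), so they were used for gene length only. The submitters' processing notes name GRCm38, mm10 and hg38 without saying how each was used. The aligner, the counter and the handling of strand and of multiply matching reads were not given in the sources used here.

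Groups came from the sample titles (3 DOX, 3 PBS), and 0 columns belonged to other samples. DOX was tested against PBS with edgeR 4.0.16 (quasi-likelihood, robust, R 4.3.3) on the counts of all 6 libraries. filterByExpr (minimum count 10, minimum total 15) left 14681 genes, scaling was by TMM, and p-values were Benjamini-Hochberg adjusted over all of them (threshold 0.05). CPM use TMM-scaled library sizes. Members were ranked by level only as CPM per kilobase, while the marker lists were summed in CPM. The biological coefficient of variation was 0.155. The procedure was first tested on simulated data.

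Every member that passed the filter was named, and at most 4 genes of smallest p in each pathway list. Ifng, Rfx5, Rfxap, Ifngr1, Cd80, Cd86 and Cd40, the overlapping genes, Bche and Alb were named after their values were seen. A gene that the rule names is not reported here. Members and lists were chosen with earlier results of these data known. Alternatives were DESeq2 1.42.0 (test, or size factors in edgeR), scaling by library size alone, no filter, leaving out each library, a replicate block, and other forms of the class ratio. Positions and promoters are from RefSeq (GRCm38.p6). Shared 100-base windows were counted in GENCODE M21 transcripts, and H2-Q9 was not compared. Overlapping genes were not separated, and no sample was left out of the main test.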

Additional observations from a re-analysis of the deposited data

How the results depend on the processing

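All 15 called members kept their direction in every alternative, but 2 of them, H2-DMb1 and H2-T24, stayed called without any single library. Over all genes, leaving out each library gave 1304 to 2432 lower and 1200 to 2344 higher calls, against 2062 and 1975. The counts of lower members were 2 to 6 for class I, 1 to 5 for class II and 0 to 6 for the class I pathway, against 5, 5 and 3. Scaling by library size alone, which moved the median of all genes from -0.01 to -0.16, gave 3429 lower and 1028 higher genes, with 8 lower for class I and 7 for the class I pathway. With no filter, 3 class II chains were lower, and 2 when scaled to H2-K1 plus H2-D1; without the filter H2-Aa, H2-Ab1, H2-Eb1, Cd74 and Ciita had adjusted p of 0.0956, 0.119, 0.0867, 0.165 and 0.129 (edgeR). With DESeq2 size factors, H2-Ab1 and Cd74 had 0.0505 and 0.0503. The difference in log2 class ratio (1.21) was 0.65 as a difference of mean log2(CPM + 0.5).

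Same-numbered libraries did not deviate together over genes (correlations of 0.09, -0.07 and -0.13). With 3 libraries a group this cannot show whether the numbers pair the samples, and the labels do not say. A replicate block gave 1849 lower and 1633 higher genes, the calls of H2-T22, Psmb10 and Ciita were lost under it (adjusted p 0.0641, 0.0554 and 0.0793, edgeR), that of Tap1 was gained (0.0411), and the pair differences in log2 class ratio were 0.68, 1.25 and 1.71.

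Sign changes were limited to uncalled genes. By library size alone Erap1 had -0.156, H2-D1 -0.112 and H2-M3 -0.053. Erap1 had -0.012 with no filter, -0.011 with the block and -0.0048 when scaled to H2-K1 plus H2-D1. Leaving out a library gave -0.140 to 0.104 for Erap1, -0.032 to 0.096 for H2-D1, -0.090 to 0.079 for H2-K1, -0.332 to 0.157 for H2-Q7 and -0.193 to 0.021 for Nlrc5. The causes were not tested. Low counts limit what can be seen for H2-Oa, H2-Ob, H2-Eb2 and H2-M5. DOX counts were also low for the called Ciita (33, 84 and 8) and H2-M2 (39, 7 and 23), and for H2-DMb2 (27, 42 and 21).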
